A study of Mus musculus with 2 samples.

Results

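Lin28 proteins and the enzymes that cut, export and load microRNAs were described on the arrays of CH cells, the small circulating cells without CD45 and lineage antigens that the study sorted from mouse blood. The members were the 10 genes Lin28a, Lin28b, Trim71, Dis3l2, Dicer1, Drosha, Dgcr8, Ago1, Ago2 and Xpo5, with every probe set whose platform annotation names 1 of them alone. All 10 genes were matched, through 24 probe sets of 45037 in all, and 18193 genes had such a probe set. RNA of CH cells of healthy C57bl/6 mice, male and female, was measured on 2 whole-genome expression arrays from Affymetrix. Each array held 1 pool of 15 adult mice of 7 months according to the labels, while the general methods of the study give both a smaller number of mice per pool and a younger age. There was 1 condition and no other cell population was analysed here, so no comparison between groups was made.

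A microRNA is cut from its primary transcript in the nucleus by Drosha with its partner Dgcr8, carried to the cytoplasm by exportin 5 (Xpo5) and cut once more by Dicer. One strand is then loaded onto an Argonaute protein, which silences messenger RNAs that pair with the seed of the microRNA. Lin28 proteins, known from embryonic stem cells, bind precursors of the let-7 family and block their maturation. The bound precursors are given a uridine tail by Tut4 or Tut7 and degraded by Dis3l2. let-7 in turn represses Lin28a, Lin28b and Trim71, and accumulates as cells differentiate.

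The sequences on which Lin28 acts are shown because they link the members to the let-7 targets described further on. The arrays did not measure mature microRNAs, so none of these sequences has a level here. The seed, bases 2 to 8 of the mature sequence, is in capitals, and the sequences are those of RefSeq for GRCm38.p6.
mmu-let-7a-5p: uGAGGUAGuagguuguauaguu
mmu-let-7d-5p: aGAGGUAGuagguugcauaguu
mmu-let-7g-5p: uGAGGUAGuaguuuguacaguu
mmu-miR-98-5p: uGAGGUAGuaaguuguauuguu
Of 1679 mature sequences in the RefSeq table, 11 (0.655%) shared this seed, namely those of let-7a, b, c, d, e, f, g, i and k, miR-98 and miR-1961.

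Lin28 recognises let-7 precursors in part through the letters GGAG in the loop between the arms. The hairpins of the genes named Mirlet7 and of Mir98 were therefore searched for GGAG on the transcribed strand, and those of let-7k and miR-1961 were not searched. It was found between the arms in 9 of 12, where it ended 3 or 4 bases before the mature sequence of the 3' arm. Anywhere in the hairpin it was also found in 9 of these 12, against 447 of all 1005 hairpins of the table (44.5%). A match is a description of letters and no measure of binding. One hairpin with the motif in capitals is shown beside the 3 without it.
Mirlet7g, chr9:106178840-106178927, plus strand: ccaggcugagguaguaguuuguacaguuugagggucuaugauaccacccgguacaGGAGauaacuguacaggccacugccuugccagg
Mirlet7b, chr15:85707319-85707403, plus strand: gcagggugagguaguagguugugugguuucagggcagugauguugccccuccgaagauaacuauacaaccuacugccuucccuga
Mirlet7c-2, chr15:85706603-85706697, plus strand: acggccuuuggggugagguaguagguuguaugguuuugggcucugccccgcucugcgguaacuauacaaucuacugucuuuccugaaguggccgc
Mir98, chrX:151913214-151913321, plus strand: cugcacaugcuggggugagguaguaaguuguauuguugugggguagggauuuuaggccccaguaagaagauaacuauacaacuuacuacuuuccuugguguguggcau

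The arrays as a whole were close to each other, with a Pearson's r of 0.9967 over all probe sets, as a description, since probe sets are no replicates. The limit for a gene was passed where 1 of its probe sets exceeded 5 (log2) on both arrays. Before clustering, the methods removed genes that were below 5 on every array, those of public series included. Its use for CH cells alone is a choice made here. As background, 77 genes of smell and taste receptors were taken, and 13 of them passed, with a highest mean of 6.92 and a 95th percentile over their probe sets of 6.03. For the labelled sort, the 2 probe sets of Ptprc, which encodes CD45, had means of 5.10 ± 0.21 and 3.58 ± 0.13 (SD, n = 2 arrays), and neither was above 5 on both arrays. Cd5 and Itgam, further antigens of blood lineages, were at 4.53 ± 0.04 and 3.85 ± 0.09. Other leukocyte genes gave higher signals with their highest probe sets, among them Lyz2 at 9.58, Csf1r at 7.42 and Cd3e at 6.61. Above 5 were 10 of 18 leukocyte genes, 5 of 9 erythroid genes, 8 of 8 platelet genes, 15 of 15 mesenchymal genes and 15 of 16 pluripotency genes, against 71.2% of all genes. Above 8 were 1, 1, 0, 12 and 7 of these, in the same order, against 37% of all genes. The leukocyte gene above 8 was Lyz2, and the erythroid gene was Tfrc, the transferrin receptor that other dividing cells also use. The part of each kind of cell in the signals given here was not tested. In such pooled RNA, few cells with much of a transcript and many cells with little of it cannot be told apart.

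Of the 10 genes, 9 were above 5 on both CH cell arrays, and Lin28b was the exception. Of all genes, 71.2% passed the same limit, so the count of 9 is near the background. With a limit of 8, 8 of the 10 genes passed, against 37% of all genes, and Dis3l2 dropped out. The same 8 genes also exceeded the highest receptor gene of the background on both arrays, which 48.3% of all genes did, through 16 of the 24 probe sets (33.5% of all probe sets). Of the 24 probe sets, 21 were above 5 on both arrays, against 57.2% of all probe sets. The median over the 10 genes of the highest probe set was 8.53 (log2), and that of all genes was 6.84. A highest probe set can only rise as a gene has more of them, and the 10 genes had 24 against 34945 for all 18193 genes. Medians and gene counts of the lists below share this limit, with 33 probe sets for the 10 genes of Lin28 and let-7 control. Signals of different probe sets also depend on the affinity of the probes, so these values describe signals and do not order the transcripts by abundance.

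**Figure D1:**
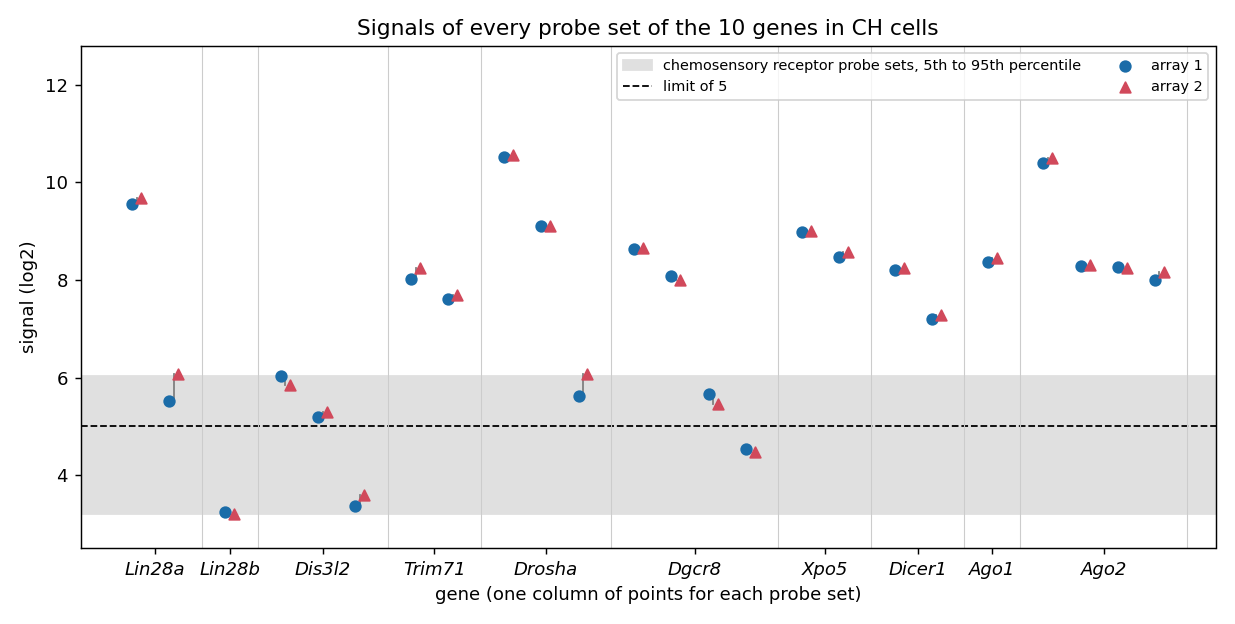
Log2 signal of all 24 probe sets of the 10 genes in CH cells, with a circle for array 1 and a triangle for array 2, grouped by gene along the horizontal axis. The dashed line marks 5 and the grey band the 5th to 95th percentile of chemosensory receptor probe sets. Lin28b lies at 3.23, within the band, while 1 or more probe sets of each of Lin28a, Trim71, Drosha, Dgcr8, Xpo5, Dicer1, Ago1 and Ago2 lies above the band.

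Lin28a, the Lin28 protein typical of pluripotent cells, gave a strong signal with 1 of its 2 probe sets. The stronger probe set had 9.56 on array 1 and 9.69 on array 2, with a mean of 9.62 ± 0.09 (SD, n = 2 arrays), at or above 87.9% of all probe sets. The weaker probe set had 5.53 and 6.08, with a mean of 5.80 ± 0.39, which lies among the receptor genes of the background. Both probe sets were above 5, but they differed by 3.82 and only the stronger stood clear of the background. The difference between the arrays at the weaker probe set, 0.55, was the largest of the 24, and 1.48% of all probe sets differed more.

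Lin28b, the paralog known from fetal blood-forming cells and some tumours, was read by a single probe set. Its signals were 3.25 and 3.20, with a mean of 3.23 ± 0.03 (SD, n = 2 arrays). Only 2.27% of all probe sets had a mean as low or lower. Both arrays placed it well below 5 (adjusted p = 5.4e-06 from limma, two-sided, against 5). That this probe set reads the Lin28b transcript where it is present cannot be checked with these arrays, so its level is a low signal and no proof of absence.

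Dis3l2, the exonuclease that degrades uridylated let-7 precursors, was close to the limit with 2 of its 3 probe sets and below it with the third. The first had 6.04 and 5.84, with a mean of 5.94 ± 0.14 (SD, n = 2 arrays). The second had 5.20 and 5.29, and the third 3.37 and 3.59. None of the 3 was above the 95th percentile of the receptor background on both arrays, a limit that 57.5% of all genes passed, so Dis3l2 was not separated from background. Tut4 and Tut7, the enzymes that add the uridine tail, were at 8.49 ± 0.001 and 9.08 ± 0.03 with their highest probe sets. Of the 5 probe sets of Tut4, 2 were above 5, and the lowest was at 3.66, whereas both of Tut7 were above it.

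Trim71, a ubiquitin ligase and RNA-binding repressor of embryonic cells that let-7 holds down later in development, had both probe sets above 5. They had 8.03 and 8.24, with a mean of 8.14 ± 0.15 (SD, n = 2 arrays), and 7.60 and 7.69, with a mean of 7.65 ± 0.06. These 2 probe sets lay 0.49 apart, a range narrower only for Xpo5 among the members with several. In the wider list of genes that act on let-7 or with Lin28, 10 of 10 were above 5 (71.2% of all genes) and 8 were above 8 (37% of all genes), with a median of 9.57 against 6.84 over all genes. By highest probe set, Hnrnpa1 at 12.37, an RNA-binding protein of the nucleus, and Ddx1 at 11.49, an RNA helicase, led this list. Syncrip, an RNA-binding protein of the cytoplasm, followed at 10.81. The value of Hnrnpa1 is from a probe set whose ending, _x_at, marks probes that can also read other transcripts. Its other probe sets were at 10.55 and 5.03, below Syncrip. When each gene was judged by its lowest probe set, 6 of the 10 remained above 5. The share of all genes by that rule was not computed, so counts by the lowest probe set, here and below, have no share beside them.

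Drosha, the nuclease that opens the pathway, had the highest signal of the 10 genes. The highest probe set had 10.53 and 10.56, with a mean of 10.55 ± 0.02 (SD, n = 2 arrays), and its ending, _s_at, marks probes that can also read other transcripts. A probe set without that ending had 9.11 on both arrays. The third had 5.61 and 6.07, with a mean of 5.84 ± 0.32, near the background. The probe sets of Drosha thus spanned 4.70, the widest range of the 10 genes, and only the third differed between the arrays by more than the SD of 0.20 over all probe sets.

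Dgcr8, which holds the primary transcript for Drosha, had 4 probe sets with means of 8.64 ± 0.01, 8.04 ± 0.05, 5.56 ± 0.15 and 4.51 ± 0.05 (SD, n = 2 arrays). The first gave 8.64 and 8.65 on the arrays and the second 8.07 and 7.999. The third gave 5.66 and 5.45, and the fourth 4.54 and 4.47. The upper pair stood above the highest receptor gene of the background, while the third lay within the background and the fourth below 5. The upper pair, 0.61 apart, carry the same sequence accession in the platform annotation. Of partners of Drosha and Dgcr8, 13 of 13 were above 5 and 12 above 8, against 71.2% and 37% of all genes, with a median of 10.24. By the lowest probe set, 11 of the 13 were above 5. The highest were Hnrnpa2b1 at 12.82, a reader of nuclear RNA, the helicase Ddx5 at 12.53 and the splicing factor Srsf3 at 12.41.

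Xpo5, which carries precursors out of the nucleus, had similar signals with both probe sets. They were 8.98 and 9.01, with a mean of 8.996 ± 0.03 (SD, n = 2 arrays), and, for a probe set with the ending _s_at, 8.47 and 8.57, with a mean of 8.52 ± 0.07. The range of 0.48 was the narrowest of the 8 genes with several probe sets. Ran, the GTPase that Xpo5 needs, was at 13.80 with its highest probe set, although 1 of its 6 was not above 5 and lay at 3.49. The highest has the ending _x_at, and the only probe set of Ran without that ending was at 11.41.

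Dicer1, which makes the final cut, had 8.20 and 8.25 with its upper probe set, a mean of 8.23 ± 0.04 (SD, n = 2 arrays). The lower had 7.19 and 7.29, a mean of 7.24 ± 0.07. Both stood above the highest receptor gene of the background on both arrays. Its cofactors Tarbp2 and Prkra were at 8.95 ± 0.09 and 8.55 ± 0.11 with their highest probe sets, and the other probe sets were at 8.27 for Tarbp2 and 3.13 for Prkra. In the list of export and dicing partners, 8 of 8 genes were above 5 and 8 above 8, against 71.2% and 37% of all genes. By highest probe set it was led by Ran, Ranbp1 at 12.76 and Tsn at 11.65. Tsn is a subunit of an RNase that clears the discarded strand. Without its _x_at probe sets, Ran at 11.41 would lie below both Ranbp1 and Tsn. By the lowest probe set, 4 of the 8 were above 5.

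The Argonaute genes differed in their signals. Ago2, the Argonaute that can cut its target, had 4 probe sets, all above 8 on at least 1 array. The highest, with the ending _s_at, had 10.40 and 10.50, a mean of 10.45 ± 0.07 (SD, n = 2 arrays). The others were at 8.30 ± 0.01, 8.26 ± 0.01 and 8.08 ± 0.12, and 1 of these shares its sequence accession with the highest, from which it differed by 2.15. Ago1 was read by 1 probe set, with 8.36 and 8.46 and a mean of 8.41 ± 0.07. The other Argonautes were lower in signal. Ago3 had 5 probe sets from 5.71 to 6.62, all above 5 and all below the highest receptor gene of the background. Ago4 had 2, at 4.19 ± 0.14 and 3.81 ± 0.12, both below 5 on both arrays (adjusted p = 2.8e-04 and 4.3e-05 from limma). Probe affinity can add to these differences, and no Argonaute was tested against another.

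The scaffold proteins that join Argonaute to the deadenylases, Tnrc6a, Tnrc6b and Tnrc6c, were at 9.92 ± 0.03, 8.79 ± 0.09 and 7.99 ± 0.05 (SD, n = 2 arrays) with their highest probe sets. Their 15 probe sets were all above 5 on both arrays, as were 57.2% of all probe sets. The lowest, of Tnrc6a at 5.18, was not called above 5 by limma (adjusted p = 0.065). Over the list of silencing proteins, 25 of 26 genes were above 5 and 20 above 8, against 71.2% and 37% of all genes, with a median of 9.58. By the lowest probe set, 19 of the 26 were above 5. By highest probe set, Pabpc1 at 14.24, the poly(A)-binding protein, and the chaperones Hspa8 at 13.82 and Hsp90aa1 at 13.05 led, which all cells use in quantity. That of Hspa8 has the ending _x_at, and its highest without this ending was at 11.88. The lowest probe sets were at 6.65 for Pabpc1, 5.96 for Hspa8 and 4.13 for Hsp90aa1. Ago4 was the gene of this list not above 5.

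**Figure D2:**
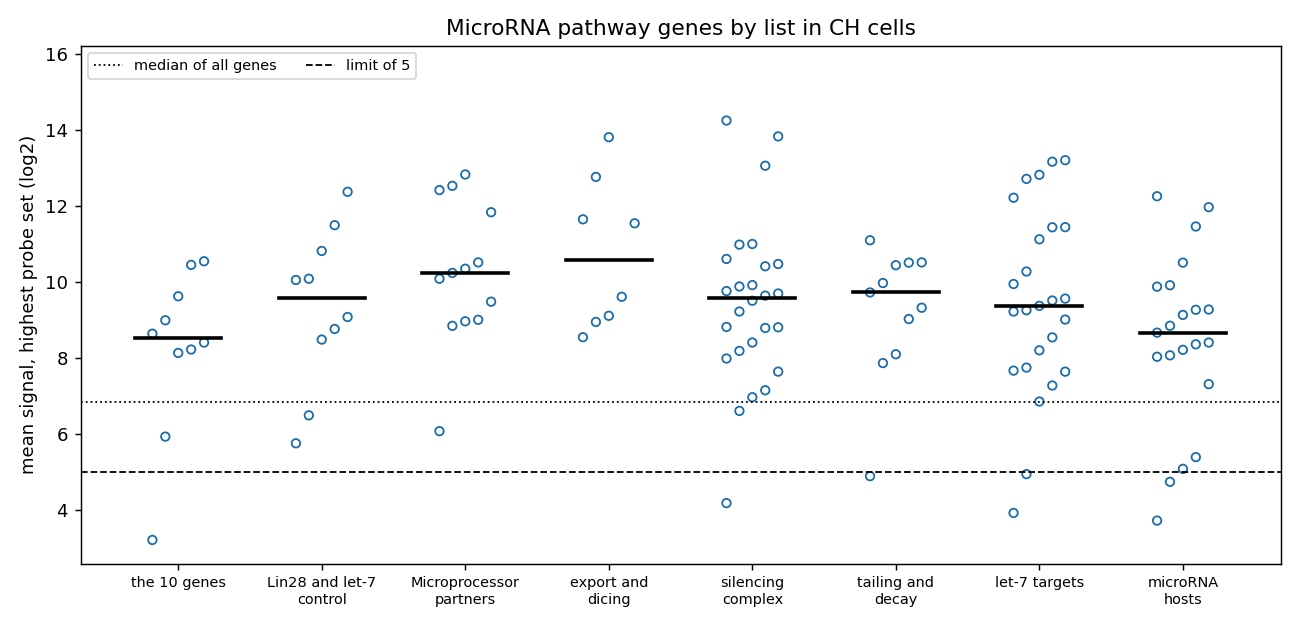
Mean log2 signal of both CH cell arrays for genes of the microRNA pathway, where each circle is the highest probe set of a gene, with a black bar at the median of each list, the dashed line at 5 and the dotted line at the median of all genes, 6.84. The medians run from 8.53 for the 10 genes to 10.58 for export and dicing partners, and the affinity of the probes is part of every difference between genes.

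Enzymes that tail, trim or degrade small RNAs were above 5 in 10 of 11 cases and above 8 in 9, against 71.2% and 37% of all genes. Snd1, a nuclease of the silencing complex, was at 11.10, the poly(A) polymerase Tent2 at 10.51 and the exonuclease Xrn2 at 10.51 with their highest probe sets. Of the 3 probe sets of Snd1, however, 1 alone was above 5, and the lowest was at 3.34. Of the 3 of Xrn2, 2 were above 5, and the lowest was at 4.76. Both of Tent2 were above 5, the lower at 7.83. Henmt1, which methylates piRNAs in germ cells, had 4.82 and 4.98, a mean of 4.90 ± 0.11 (SD, n = 2 arrays), and was not above 5. By the lowest probe set, 6 of the 11 were above the limit.

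Messenger RNAs known as targets of let-7 were above 5 in 23 of 25 measured genes, and 18 were above 8, against 71.2% and 37% of all genes. By the lowest probe set, 17 of the 25 were above 5. Hmga2, a chromatin protein of embryonic tissues and one of the best known let-7 targets, had 12.75 and 12.88 with its highest probe set, a mean of 12.82 ± 0.09 (SD, n = 2 arrays). Its other probe sets were at 12.50, 12.01 and 5.12. Of the RNA-binding proteins of fetal tissues, Igf2bp1 was at 9.95 ± 0.14 and Igf2bp3 at 9.26 ± 0.06 with their highest probe sets. Their 10 probe sets were all above 5, as were 57.2% of all probe sets. Those of Igf2bp1 ran from 7.67 to 9.95. Those of Igf2bp3 ran from 5.83 to 9.26, and the lowest of these lay within the receptor background. Nap1l1, a histone chaperone, at 13.20 and Ccnd1, cyclin D1, at 13.16 led the list, and both are used by many dividing cells. Not above 5 were Acvr1c, a receptor of the TGF-beta family, with 4.87 and 5.04, and Plag1, a zinc finger factor of fetal growth, with 3.90 and 3.98. With let-7 itself unmeasured and 1 condition, whether let-7 acts on these genes in CH cells was not tested.

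**Figure D3:**
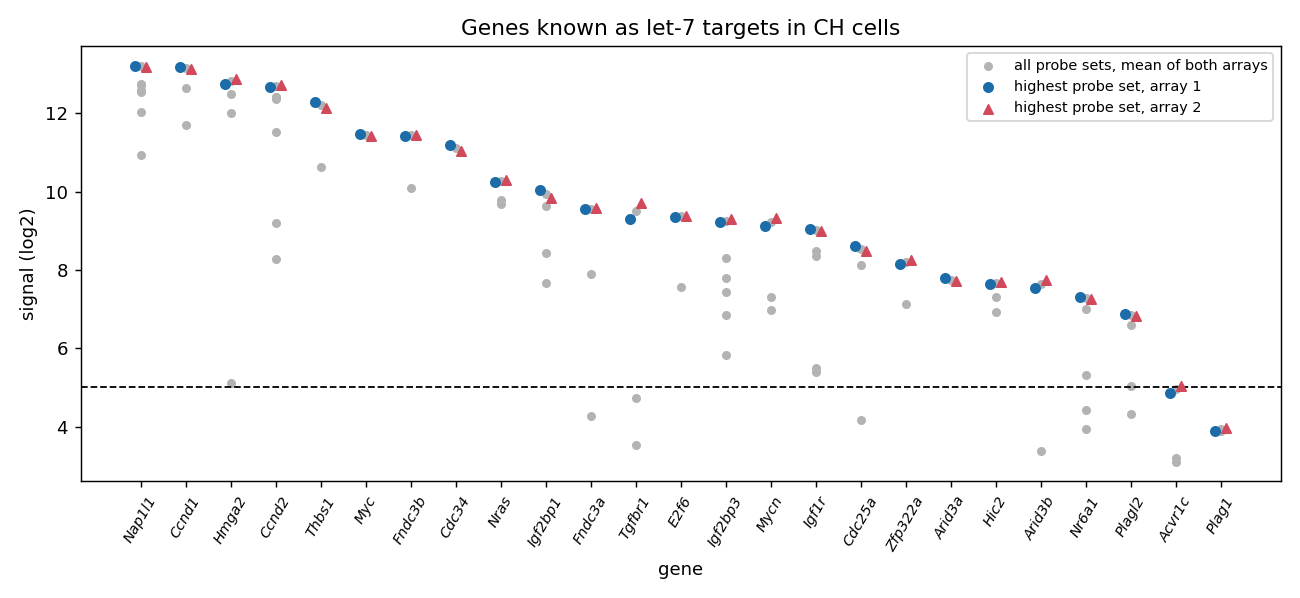
Log2 signal in CH cells of 25 genes known as targets of let-7, in order of the mean of the highest probe set, with a circle for array 1, a triangle for array 2 and grey points for the mean of every probe set. The dashed line marks 5. Nap1l1 lies at 13.20, Hmga2 at 12.82, Acvr1c at 4.95 and Plag1 at 3.94.

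The variation of the 10 genes between the pools was near that of all probe sets. The median absolute difference between the arrays was 0.09 over the 24 probe sets and 0.12 over all probe sets, on the log2 scale. The SD of the difference was 0.19 over all probe sets with a mean above 5 and 0.22 over the others. Of the 24, 17 were higher on array 2 and 7 on array 1, whereas 50.2% of all probe sets were higher on array 2. A difference above the SD of 0.20 was seen in 5 of the 24, against 27.4% of all probe sets. These were the weaker probe sets of Lin28a and Drosha, 1 each of Dgcr8 and Dis3l2, and the stronger probe set of Trim71 with a difference of -0.21 (array 1 minus array 2). With 2 arrays, the direction of these differences was not tested.

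**Figure D4:**
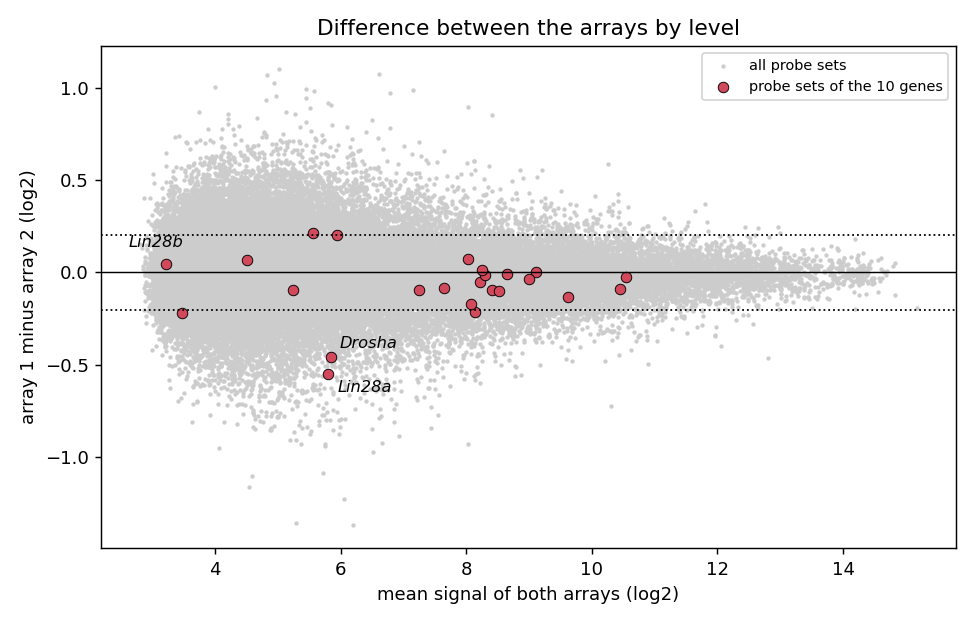
Difference between the arrays (array 1 minus array 2, log2) against the mean of both arrays for all 45037 probe sets in grey and for the 24 probe sets of the 10 genes in red, with dotted lines at plus and minus the SD of 0.20. The weaker probe sets of Lin28a and Drosha lie lowest, at -0.55 and -0.46.

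In the test of each mean against 5 with limma, where the estimate of the spread draws on every probe set, 21 of the 24 probe sets were above the limit at an adjusted p under 0.05, against 54.8% of all probe sets. The highest adjusted p among them was 0.023, for the probe set of Dis3l2 with a mean of 5.24. The other 3, of Lin28b, Dis3l2 and Dgcr8, were below 5 by the same test, which 36.4% of all probe sets were. It also called 11 of the 77 receptor genes of the background above 5, so a pass alone does not set a gene apart from background.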

How the data were processed

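The deposited table holds a log2 signal for each probe set on 2 Affymetrix arrays of 1 pool each. According to the methods, the raw data were processed by RMA and quantile normalised with arrays of public series. That this run gave the deposited values is not stated, and tool versions are not given in the sources used here. From 45101 probe sets, 64 controls were left out. Of the others, 34945 named 1 gene in the platform annotation, 932 named several and 9160 were not listed. Symbols were updated through Entrez identifiers to GRCm38.p6. A gene was represented by its highest probe set. Means were tested against 5, two-sided, in an intercept-only model of limma 3.58.1 (R 4.3.3), and p-values were adjusted by Benjamini-Hochberg over 45037 probe sets. The fit was also run on simulated arrays with 1 SD for all probe sets, and the outcome is not reported here. Python 3.11.15 was used otherwise. The labels call the pools biological replicates, and the number of arrays limits the precision.

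The members and lists were chosen with earlier results of these data known. Named were all members, the 3 genes of highest mean in each pathway list and those not above 5. Tut4, Tut7, Tarbp2, Prkra, Ago3, the Tnrc6 genes, Igf2bp1 and Igf2bp3 were added after their values were seen. Listed genes without a probe set of their own are not analysed here. Alternatives were limits of 6, 8 and the 95th percentile of receptor probe sets (6.03), quantile normalization, each array left out, other choices of probe set, and limma with a mean-variance trend.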

Additional observations from a re-analysis of the deposited data

How the results depend on the processing

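No paired analysis was possible because there was 1 group of arrays. Of the 10 genes, 8 or 9 passed under every limit, normalization and single array tried, and 7 when each gene was judged by its lowest probe set. Without _s_at and _x_at probe sets 9 still passed. Over the 24 probe sets, a limit of 8 left 12, or 11 with limma, since a higher limit admits fewer. With a mean-variance trend limma called 20 of 24, and the Dis3l2 probe set at 5.24 no longer passed (adjusted p = 0.055). Judged by the lowest probe set, which can only lower a count, the lists fell to 6 for Lin28 and let-7 control, 4 for export and dicing partners, 6 for tailing and decay, 11 for partners of Drosha and Dgcr8, 19 for silencing proteins, 17 for let-7 targets and 12 for host transcripts. Of the 77 receptor genes of the background, 11 passed by their lowest probe set, and the share of all genes by that rule was not computed. By their highest probe set, 4 receptor genes passed a limit of 6, 4 the 95th percentile of their own probe sets and 0 a limit of 8. Quantile normalization moved no level of the 10 genes by more than 0.0041 (log2). It mapped both arrays to their own mean distribution, and their medians were already 5.54 and 5.52. A mean of both arrays can hardly move in this way, so the small shift is no sign of robustness. With 2 arrays of pooled RNA and no other population, low signals such as that of Lin28b cannot be told from probe sets that do not read their transcript.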

Other observations

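Transcripts that host microRNAs in their introns or exons were mostly above the limit of 5, in 18 of 21 measured genes, and 14 were above 8, against 71.2% and 37% of all genes. By the lowest probe set, 12 of the 21 were above 5. Mcm7, a replication helicase subunit whose intron holds the miR-106b cluster, was at 12.25 ± 0.03 (SD, n = 2 arrays) with its highest probe set. Ctdsp2, a phosphatase gene that hosts a member of the miR-26 family, was at 11.97 ± 0.03. Smc4, a condensin subunit that hosts miR-15b, was at 11.46 ± 0.05. For Mcm7 and Ctdsp2 these probe sets have the ending _s_at. The other probe sets were at 8.59 and 8.33 for Ctdsp2, from 10.16 to 11.25 for Mcm7, and at 10.98 and 10.22 for Smc4. Mir155hg, the host transcript of miR-155 known from activated immune cells, had 3.81 and 3.66 on the arrays. Ftx was at 4.75 ± 0.10, and Dleu2, host of miR-15a, had 4.92 and 5.26, above 5 on array 2 alone. The level of a host transcript is not the level of its microRNA, which the arrays did not measure.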
